A study of Mus musculus with 42 samples.

Results

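Intronic polyadenylation sites (PASs) were examined in the 38 3′READS libraries of a mouse arsenite stress study, in which each read marks the 3′ end of one poly(A)+ transcript. Positions listed in the libraries were joined when they lay within 24 nt of each other on the same strand, which turned 99725 positions into 83916 PASs. Of these, 12199 lay in an intron of a protein-coding gene on the strand of that gene and in no annotated exon of that strand, and they are the members described here. A further 43952 PASs lay in 3′UTRs and served as the reference. The members came from 5687 host genes, of which 3014 had 1 site and 4992 also had a listed 3′UTR PAS, and 165 members lay in introns of more than one gene.

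The cells were NIH3T3, an established mouse fibroblast line, and C2C12, a mouse myoblast line that fuses into myotubes, and the strain given for the samples was C57BL/6. NIH3T3 cells were non-treated (NT), exposed to 250 µM sodium arsenite for 1 h (AS), or returned to normal medium for 4, 8, 12 or 24 h of recovery (RC). Total RNA was profiled in 3 NT and 3 AS libraries (replicates 1, 2 and 4) and in 1 library per recovery time (replicate 4). Cells labelled with 4-thiouridine (4sU) for the last 1 h gave a 4sU library of newly made RNA and a flow-through (Ft) library of pre-existing RNA for each of 2 NT, 1 AS and 1 RC4 samples. RNA bound to the stress granule protein TIA1 and its input RNA, both from the cytoplasmic fraction, were sequenced from 2 NT and 2 AS samples each. In C2C12, cytoplasmic RNA of proliferating myoblasts (MB) and differentiated cells (MT) came from 2 NT, 1 AS and 1 RC4 samples each, and untreated total RNA from 2 samples of each state. In the 4sU, Ft and cytoplasmic series the NT2 library is the untreated control of the 4 h time point. Where conditions were sequenced once, the pairs compared below are different conditions of one series rather than repeats of one condition, and p-values measure the spread between these libraries.

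Cleavage and polyadenylation inside an intron ends the transcript before the remaining exons are reached, so the mRNA carries a truncated coding region or none at all. Such sites compete with splicing of the intron that holds them, and U1 snRNP bound at 5′ splice sites is known to hold many of them back. Most, like 3′UTR sites, use a hexamer upstream of the cleavage position, most often AATAAA in the DNA strand, that is bound by the cleavage and polyadenylation specificity factor. Introns also host small nucleolar RNAs (snoRNAs), which are released by trimming of the excised intron and can carry short oligo(A) or poly(A) tails while they mature or decay.

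The last 30 bases before the cleavage position of members on which the results below turn are shown 5′ to 3′ on the sense strand of the NCBIM37 (mm9) genome, with 1 hexamer in capitals, which is AATAAA where the window searched held it, otherwise ATTAAA and otherwise another of the variants searched. The Ppp2r5c site lies at chr12:111809094-111809123 (+), that of 1810013L24Rik at chr16:8851763-8851792 (+), Rab21 at chr10:114751802-114751831 (−), Trak1 at chr9:121371699-121371728 (+), Pcf11 at chr7:99816694-99816723 (−), Smarcad1 at chr6:64994168-64994197 (+), Fbrsl1 at chr5:110858897-110858926 (−) and Nisch at chr14:32008605-32008634 (−).
Ppp2r5c, intron 14 of 15: tccgcAATAAAacactttccaactttgtaa
1810013L24Rik, intron 3 of 3: acttcAATAAAaattcagcattacaatgta
Rab21, intron 1 of 6: tgctttcaaAGTAAAtggagtggtaaaaca
Trak1, intron 15 of 16: tagaagATTAAAacggatggttgaaaacaa
Pcf11, intron 1 of 15: aaaatttgtgAATAAAacatataaaatatg
Smarcad1, intron 2: actcttagtgAATAAAaaaattcaaaccaa
Fbrsl1: AATAAAaagtgccatgccatttttataaca
Nisch: tcttcagaaATTAAAgctcttggctcctca

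A second kind of member ended at a snoRNA gene. The same 30 bases are shown for 4 of these, with the last ACA triplet in capitals, because box H/ACA snoRNAs carry an ACA just before their 3′ end. They lie at chr13:90238692-90238721 (+) for Tmem167, chr1:145626171-145626200 (+) for Uchl5, chr16:23111808-23111837 (+) for Eif4a2 and chr10:23505150-23505179 (−) for Rps12. The Tmem167 and Uchl5 sites both end copies of snoU109.
Tmem167, snoU109: tgagtagtagtatatttctcctACActgaa
Uchl5, snoU109: gtagtatatttctcctACAgaaagagaaaa
Eif4a2, SNORA4: tactatattgtggcctACAttggttgcggg
Rps12, Snora33: ttaaggtccctgaaagtggctACAgtatta

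A pair of further kinds, shown because they hold the most-read members, had a genomic run of A at the site or a near-identical copy elsewhere in the transcriptome. The Zfand3 site (chr17:30161871-30161900, +) ends in a genomic A run, and the Mrps28 site (chr3:8880682-8880711, −) lies in a copy of Ptma sequence, so its reads may belong to Ptma.
Zfand3, intron 1: attctttgttcgtttgtaaaaaaaaaaaaa
Mrps28, intron 2: ttattttgctgagttgttctaaaaaaaaaa

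Hexamers were common at the members. AATAAA or ATTAAA, searched on the sense strand within 45 nt upstream, was found at 57.0% of the 12199 intronic PASs and at 64.4% of the 4324 listed in 3 or more libraries, against 52.4% of the 3′UTR PASs, with the hexamer a median of 23 nt from the intronic site. Members were listed less widely than 3′UTR PASs: 6259 of them (51.3%) appeared in 1 library only, against 24.8% of 3′UTR PASs, and 135 appeared in all 38 libraries, against 6309 3′UTR PASs. Clusters under 5 reads are not listed in the files, so a site at 0 in a library had at most 4 reads there.

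Most intronic reads fell at sites whose intronic origin is uncertain. Near-identical copies had at least 90% identity over at least 60 of the 100 nt upstream. The match was to another gene's transcript or to the sequence before a PAS outside the members, with or without a gene. They made up 1297 members (10.6%) and 44.5% of the intronic RPM (reads at a site per 1000000 reads of the library, averaged over libraries). Sites within 4000 nt past an annotated transcript end made up 2578 members (21.1%) and 59.8% of the RPM. A genomic A run, taken as at least 7 A in 10 nt within 10 nt of the site, marked 2723 members (22.3%), against 11.9% of 3′UTR PASs. At such sites reads from internal A stretches cannot be told apart from polyadenylated ends. The classes overlap, and 423 members (3.47%) lay within 5 nt past a 5′ splice site.

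The 10 most-read members belonged to these classes. They lay in Mrps28, a mitochondrial ribosomal protein gene (2348 RPM, copy of Ptma), Zfand3 (1227 RPM, A run), Sdccag8 (942 RPM, copy of Hmga2), Mbd5 (782 RPM, copy of Ap2m1), Zyx, which encodes the focal adhesion protein zyxin (700.5 RPM, past an annotated end of the gene itself), Psmc3, a proteasome ATPase (452 RPM), Lamp2, a lysosomal membrane protein (399.9 RPM), Tacr3 (357 RPM, copy), Vmp1 (352 RPM, copy of Rpl13a) and Pou2f3 (337 RPM, copy of Naca). The 20 most-read members together held 43.4% of all intronic RPM.

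Members free of all these features and with 1 host gene are called clear sites below. This class was drawn up after values of these data had been seen, so its counts are a description. It held 6542 members (53.6%) in 3640 host genes, with 13.0% of the intronic RPM. Of the clear sites 60.7% had AATAAA or ATTAAA, 3811 were listed in 1 library, 1906 in 3 or more and 18 in all 38. They lay a median of 1647 nt past the 5′ splice site in introns with a median length of 7747.5 nt. Of the 6416 in genes with more than 1 intron, 20.9% were in the first intron, 13.0% in the last and 66.1% in between, and 20.4% lay within 5000 nt of the transcription start.

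The most-read clear site was in intron 5 of 6 of Tm4sf1 (chr3:57093830, −), a tetraspan membrane protein gene, with a mean of 90.7 RPM and AATAAA 32 nt upstream. Next came Ppp2r5c, a regulatory subunit of protein phosphatase 2A, with 62.2 RPM and a site 145 nt past the 5′ splice site of intron 14. Sfswap, a splicing regulator (53.8 RPM), Tulp4 (51.7 RPM), 1810013L24Rik (44.8 RPM), Loxl1, a lysyl oxidase that crosslinks elastin (40.4 RPM), Rab21, an endosomal GTPase (38.6 RPM), Atrx, a chromatin remodeller (31.9 RPM), Trak1, a kinesin adaptor for mitochondria (26.7 RPM), and Opn3, an opsin (25.0 RPM), completed the 10 highest. Each read is one transcript end, so these levels do not scale with transcript length.

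snoRNA-end sites, within 20 nt of the 3′ end of an annotated snoRNA gene on the strand, formed a class of 106 members in 88 host genes with 2.44% of the intronic RPM. This class too was noticed in the data and is given as a description. Of the 106 sites, 96 lay 0 to 10 nt past the snoRNA end, 62 ended SNORA genes, 25 SNORD and 8 SCARNA, 22 lay in ribosomal protein genes and 83.0% had none of the hexamers searched. An ACA stood within the last 20 nt of 75 of them (70.8%), and of 63 of the 64 that ended SNORA, Snora or snoU109 genes. In windows of the same length ACA was found at 27.7% of all members and 29.5% of 3′UTR PASs. The most read were Tmem167 (128 RPM), Eif4a2, a translation initiation helicase (103 RPM), Rps16 (73.7 RPM) and Uchl5, a proteasome-associated deubiquitinase (46.8 RPM).

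Depth ran from 1048335 to 6974664 reads per library (median 2874186) and the members listed from 701 to 4194. Shares were therefore taken after thinning each library to 1000000 reads, as the percentage of intronic and 3′UTR reads that fell at members, with the 5-read listing limit applied again. Intervals on shares are 95% Wilson intervals and cover counting error only. No listed myoblast marker was seen in NIH3T3 (0 of 4), and the summed level of 6 myotube markers was 76.7 to 260 RPM in MB and 10339 to 21207 RPM in MT libraries, with Pax7 at 0 in both states. Other marker sums did not follow the cell names. The 4 myoblast markers had a median sum of 87.1 RPM in MB and 235 RPM in MT. The 6 fibroblast markers had 3580 RPM in NIH3T3, 7966 RPM in MB and 8360 RPM in MT, and of these Thy1 was at 0 in MB and MT. Replicate 4 of total RNA stood apart: its 6 libraries had 0.748% to 1.43% of reads at A-run members, against 0.0330% to 0.241% in replicates 1 and 2.

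Intronic sites took a small share of reads in every library. Over the 38 libraries the share of all members ran from 1.56% (MT cytoplasm, RC4) to 3.90% (total NT4) with a median of 2.42%, and that of clear sites from 0.0983% (MT cytoplasm, RC4) to 0.671% (TIA1-bound NT2) with a median of 0.234%. Clear sites held the most in RNA bound by TIA1, with 0.407%, 0.447% (AS), 0.545% and 0.671% (NT), and in newly made RNA, with 0.393% and 0.421% (NT), 0.317% (AS) and 0.632% (RC4). They held the least in C2C12 cytoplasm, where the 8 libraries ran from 0.0983% to 0.188%.

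**Figure D1:**
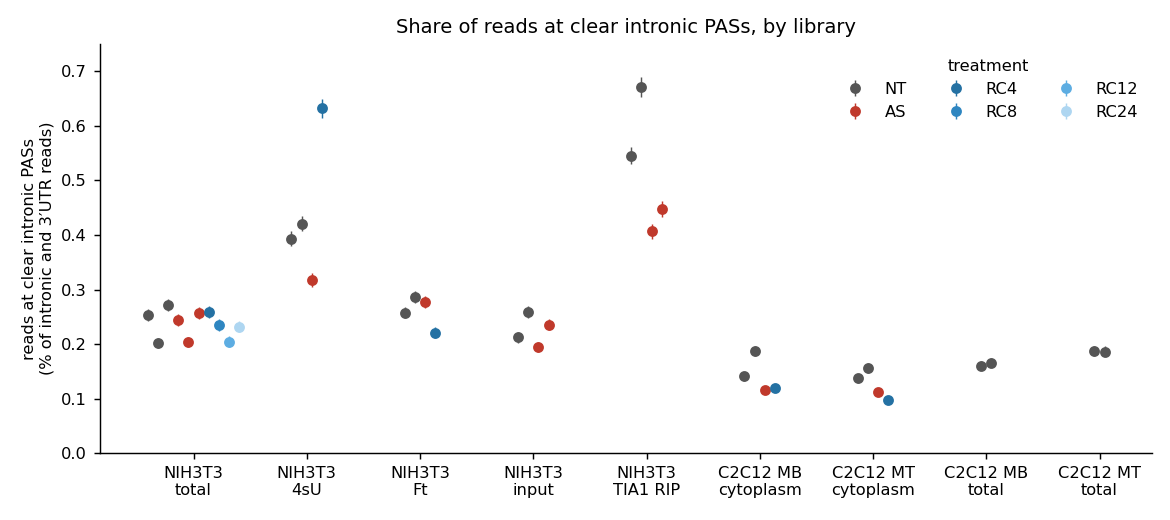
Percentage of intronic and 3′UTR reads at clear intronic sites in each of the 38 libraries, grouped by cell line and RNA fraction and coloured by treatment; bars are 95% Wilson intervals. TIA1-bound RNA (0.407% to 0.671%) and 4sU RNA (0.317% to 0.632%) sit above the Ft, total and cytoplasmic libraries.

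The share of intronic sites as a whole was not higher in AS. In total RNA the share of all members was 2.59%, 1.78% and 3.63% in AS and 2.63%, 1.71% and 3.90% in NT replicates 1, 2 and 4, a mean difference of −0.078 ± 0.170 points (SD, n = 3 pairs), with AS lower in 2 of 3 pairs (exact two-sided sign-flip permutation test, p = 0.75, where 3 pairs cannot go below 0.25). For clear sites the pairs were 0.244% against 0.253%, 0.204% against 0.202% and 0.257% against 0.271%. Across 8 cultures (3 of total RNA, the 4sU culture, 2 of input RNA, and cytoplasm of MB and MT) the share was lower in AS in 7 of 8, with a mean of 2.46% in AS and 2.60% in NT and a difference of −0.135 ± 0.114 points (exact permutation test, p = 0.03125, adjusted over 10 share comparisons p = 0.3125). Without the 20 most-read members the difference was −0.0362 points, and it no longer passed the unadjusted threshold (exact permutation test, p = 0.289). It was also lost, at an exact permutation p of 0.0625, without total replicate 4, the 4sU culture, input replicate 2, MB or MT. Clear sites were lower in 7 of the 8 cultures (0.208% against 0.231%), and those within 5000 nt of the transcription start were lower in all 8 (0.0707% against 0.0767%). During 4 h of recovery the share was lower than in NT in 3 of 4 cultures, with means of 2.42% and 2.53% (exact permutation test, p = 0.375, smallest possible 0.125). The AS and RC4 values share NT libraries.

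Single sites were tested by the odds of ending at the intronic PAS rather than at the other 3′UTR PASs of the gene, with edgeR's quasi-likelihood test and Benjamini-Hochberg adjustment over all intronic and 3′UTR PASs fitted. In total RNA, 508 members entered the AS against NT fit and 0 passed an adjusted p of 0.05, as did 0% of all 8945 PASs fitted. DESeq2 called 2 higher in AS and none lower, against 0.0224% of all PASs. The median change was 0.02 on the log2 odds scale for all members and −0.05 for the 231 clear sites, 110 of which were positive. In input RNA 0 of 280 members passed edgeR (0% of all 6672 PASs), and DESeq2 called 1 lower, beside 2 of all 6672 PASs.

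Summed levels of snoRNA-end sites, a class noticed in these data, were higher in AS in the NIH3T3 series. Their summed level in total RNA was 2082, 658 and 680 RPM in AS against 1145, 436 and 302 RPM in NT replicates 1, 2 and 4. It was 1376 and 3866 RPM against 785 and 3014 RPM in input RNA, 140 against a mean of 20.1 RPM in 4sU RNA, and 532 against 83.9 RPM in Ft RNA. AS was thus above NT in each of the NIH3T3 total, input, 4sU and Ft series. In C2C12 cytoplasm the MB level was 597 RPM in AS and 713 RPM in NT, and the MT level 30.8 and 16.6 RPM. The MT values rest on at most 9 listed sites, and after thinning the MT share in AS was 0.910 times that in NT. In TIA1-bound RNA the levels were 419 and 926 RPM in AS and 367 and 901 RPM in NT.

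**Figure D2:**
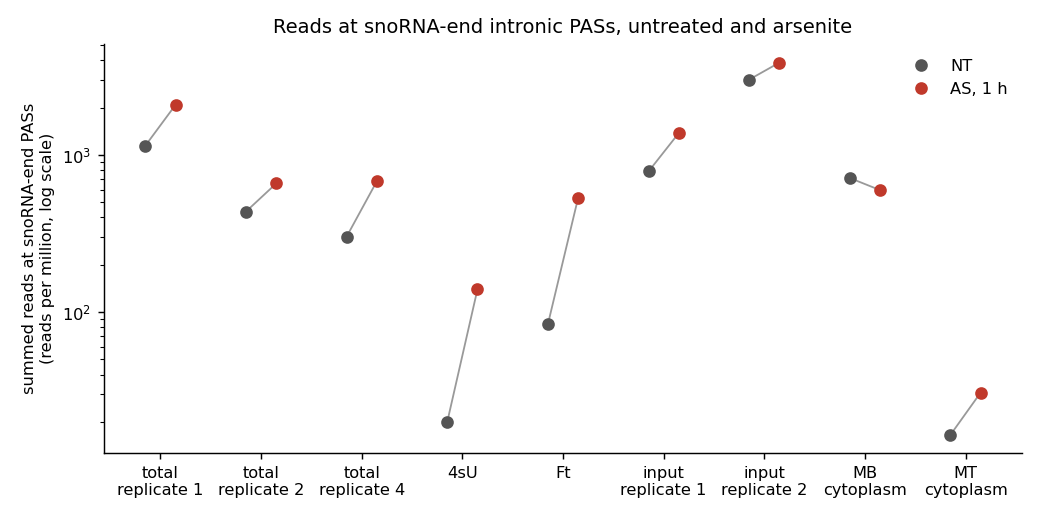
Summed RPM at the 106 snoRNA-end sites, on a log axis, in NT and AS libraries joined by culture (total replicates 1, 2 and 4, 4sU, Ft, input replicates 1 and 2, and MB and MT cytoplasm). NT points of 4sU, Ft and cytoplasm are means of 2 libraries; the lines rise in every NIH3T3 culture and in MT cytoplasm, for example from 302 to 680 RPM in total replicate 4, and fall in MB cytoplasm from 713 to 597 RPM.

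Among listed snoRNA ends, more were higher than lower in AS. In total replicate 1, 67 sites were higher and 4 lower in AS, in replicate 2, 57 and 11, in replicate 4, 30 and 4, and in Ft RNA, 51 and 2. Of the higher sites 28, 34, 13 and 32 were listed only in AS, and listing depends on depth. Counts were 17 and 1 in 4sU, 37 and 8 and 45 and 12 in input RNA. They were 35 and 21 in MB cytoplasm, 8 and 1 in MT, and 20 and 6 and 30 and 25 in TIA1-bound RNA. The same count was not made over all PASs, so these counts have no reference, and they were not tested. Of the 106 snoRNA-end sites 30 had enough reads to enter the total RNA fit and 23 the input RNA fit, and 0 passed the adjusted threshold in either.

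At the snoU109 end in Tmem167, which encodes a small Golgi membrane protein, AS and NT libraries of total RNA had 528 and 259 RPM in replicate 1, 197 and 181 RPM in replicate 2 and 80.6 and 19.4 RPM in replicate 4. In the fit its odds were 2.26-fold higher in AS (edgeR's quasi-likelihood test, log2 1.18 ± 0.32 SE, unadjusted p = 0.0098, adjusted p = 1.0). In input RNA the same site was lower in AS, at 141 and 878 RPM against 181 and 1037 RPM. The SNORA4 end in Eif4a2 had 308 and 280, 101 and 55.0, and 141 and 51.6 RPM in AS and NT of the total RNA replicates. The SNORA40 end in Rps16, a protein of the small ribosomal subunit, had 357 and 181, 64.8 and 35.2, and 32.3 and 9.38 RPM. Both were higher in AS in every total RNA pair, and the AS and NT groups overlapped.

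Recovery levels of snoRNA ends differed between series. In the replicate 4 series of total RNA their sum was 302 RPM in NT, 680 in AS, 180 at 4 h, 123 at 8 h, 106 at 12 h and 65.8 at 24 h of recovery, with 1 library each, so every recovery library lay below NT. At 4 h of recovery the sum was 208 RPM in Ft RNA, above the 127 and 40.7 RPM of NT, and 43.1 RPM in 4sU RNA, above 23.5 and 16.7 RPM. In total replicate 4 the Tmem167 end had 19.4 RPM in NT, 80.6 in AS and then 10.6, 5.66, 2.83 and 0 RPM, and the 24 h library, the shallowest, listed 7 snoRNA-end sites. In MB cytoplasm the sum was 264 RPM after 4 h of recovery against 705 and 720 RPM in NT, and none of the 13 snoRNA-end sites fitted in C2C12 cytoplasm passed the adjusted threshold for recovery.

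**Figure D3:**
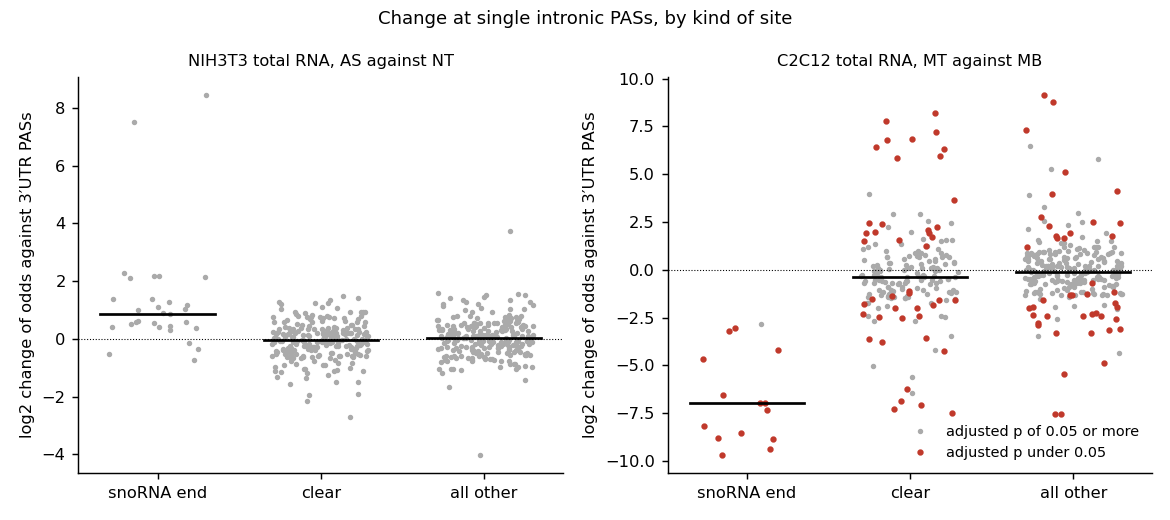
Log2 change in the odds of ending at each intronic site for AS against NT in NIH3T3 total RNA (30 snoRNA-end, 231 clear and 247 other sites) and for MT against MB in C2C12 total RNA (15, 186 and 252 sites); black lines are medians and red points have an adjusted p under 0.05. Clear sites have a median of −0.05 in the first comparison, which has no red point, and −0.36 in the second, where snoRNA ends listed at 0 in MT entered through their MB reads and their log2 values are no measure of size.

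The clearest differences between newly made and pre-existing RNA were at single sites that went both ways. Over the 4 conditions the share of all members was 2.65% in 4sU and 2.18% in Ft RNA, higher in 4sU in 4 of 4 (+0.467 ± 0.372 points, exact permutation test, p = 0.125, the smallest 4 pairs allow, adjusted p = 0.417). For clear sites the means were 0.441% and 0.261%, and the ratio had a geometric mean of 1.65 over the conditions and ran from 1.14 in AS to 2.86 in RC4. The ratio was larger for sites far from the start of the gene. Beyond 5000 nt from the transcription start clear sites held 0.334% in 4sU and 0.161% in Ft RNA, higher in 4 of 4, whereas within 5000 nt they held 0.107% and 0.0996%, higher in 2 of 4. A-run members had a mean ratio of 1.94. Of the 241 clear sites that passed the read filter 110 had higher and 131 lower odds in 4sU RNA.

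The site test called 58 members higher and 52 lower in 4sU than in Ft RNA of the 604 fitted, or 9.60% and 8.61%, against 3.63% and 3.61% of all 9990 PASs. Clear sites gave 14 higher and 23 lower of 241. Within 5000 nt of the start 1 clear site was higher and 10 were lower of 81, and beyond that 13 were higher and 13 lower of 160. Leaving out the NT1 or the NT2 pair left 0 calls among members and among all PASs (0 of 10386 and 0 of 9602). Without AS 39 members were higher and 31 lower, beside 457 of all 10569 PASs in either direction. Without RC4 the counts were 8 and 23, beside 142 of 9394. Calls thus depended on the NT libraries over all PASs, not at members alone.

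Sites enriched in newly made RNA included the Tm4sf1 site. Its percentage of the reads at the site plus the gene's 3′UTR PASs was 66.8%, 72.6%, 62.4% and 56.7% in 4sU RNA of NT1, NT2, AS and RC4, and 37.0%, 41.0%, 39.7% and 19.9% in Ft RNA (log2 odds 1.87 ± 0.23 SE, edgeR adjusted p = 0.0112). The site in Fbxl17, an F-box protein gene, had 38.9%, 47.1%, 33.1% and 81.0% in 4sU and 17.9%, 17.6%, 7.59% and 25.0% in Ft RNA (log2 odds 2.43, adjusted p = 0.0198). That in Trappc9, a subunit of a vesicle tethering complex, had 53.7%, 69.6%, 40.3% and 80.0% against 28.6%, 34.3%, 23.5% and 27.9% (log2 odds 2.01, adjusted p = 0.0480). In Zwint, a kinetochore protein gene, 2 clear sites were higher in 4sU, and at the first the values were 39.1%, 34.6%, 21.3% and 39.2% against 7.20%, 5.43%, 8.93% and 11.5%.

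Sites enriched in pre-existing RNA were led by intron 2 of Smarcad1, a SWI/SNF-type chromatin remodeller. There the percentage was 12.9%, 10.6%, 16.9% and 4.57% in 4sU RNA of NT1, NT2, AS and RC4 and 70.2%, 70.1%, 70.5% and 40.7% in Ft RNA (log2 odds −3.92 ± 0.28 SE, edgeR adjusted p = 0.0041). The site in intron 1 of Pcf11, itself a cleavage and termination factor, had 5.88%, 7.06%, 2.02% and 11.3% in 4sU and 16.2%, 30.1%, 13.0% and 19.5% in Ft RNA (log2 odds −1.97, adjusted p = 0.0241). The Ppp2r5c intron 14 site had 62.3%, 39.0%, 65.6% and 48.8% against 81.8%, 67.8%, 79.0% and 89.2% (log2 odds −1.78, adjusted p = 0.0345). Other clear sites that were lower in 4sU lay in 1700048O20Rik, Zfp52 and Mll5, and one in Mmd was higher. The Mmd site had 49, 84, 0 and 296 reads in 4sU RNA of NT1, NT2, AS and RC4 and 6, 0, 0 and 14 in Ft RNA. It thus entered the fit through its 4sU reads. Outside the clear class, the site of Phldb2 (A run) was higher and those of Csf1 and Zfand3 were lower.

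**Figure D4:**
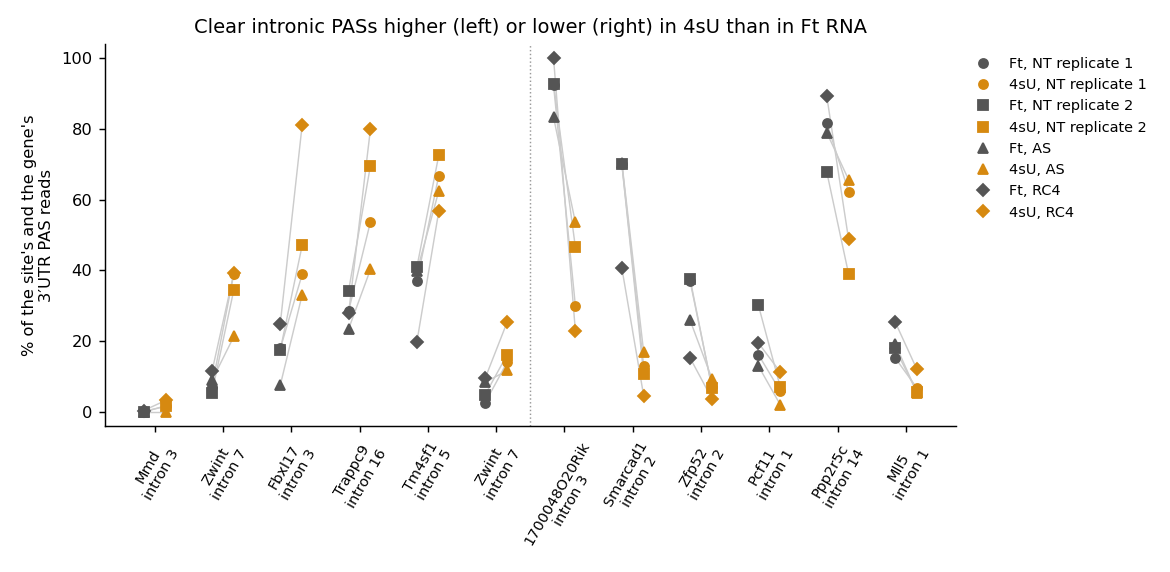
Percentage of reads at the intronic site, out of the site and the gene's 3′UTR PASs, for 12 clear sites in Ft (grey) and 4sU (orange) libraries, with a marker shape for each of NT1, NT2, AS and RC4. Smarcad1 is at 40.7% to 70.5% in Ft and 4.57% to 16.9% in 4sU RNA, and Tm4sf1 at 19.9% to 41.0% and 56.7% to 72.6%.

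RNA bound by TIA1 had a larger share of reads at clear sites than its input in each sample, although single clear sites went both ways. TIA1-bound and input shares were 0.407% and 0.194% (AS1), 0.447% and 0.236% (AS2), 0.545% and 0.212% (NT1), and 0.671% and 0.260% (NT2). The per-sample ratio ran from 1.90 to 2.59, with a geometric mean of 2.27. That mean was 2.84 beyond 5000 nt from the transcription start and 1.37 within it, and it was 1.67 for first, 2.34 for middle and 2.99 for last introns. Of the 223 clear sites that passed the read filter 109 had higher and 114 lower odds in TIA1-bound RNA, with a median of −0.04 on the log2 scale. Other classes were also higher in 4 of 4 samples, with mean ratios of 2.00 for A-run members and 1.46 for sites past an annotated end of the gene itself. Copies had a mean ratio of 0.862 and snoRNA ends one of 0.303, both lower in 4 of 4. All members together had 3.35% in TIA1-bound and 3.09% in input RNA, higher in 3 of 4 (+0.262 points, exact permutation test, p = 0.25, adjusted p = 0.556).

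No single member passed the adjusted threshold for TIA1 binding with edgeR, with 0 of 445 fitted and 0% of all 9279 PASs. DESeq2 called 38 higher and 33 lower, of which 23 and 18 were clear, against 8.84% of all PASs in either direction. The following sites were picked after their values were seen. At the Tm4sf1 site TIA1-bound RNA had 88.7%, 93.2%, 91.9% and 92.6% of the gene's reads (AS1, AS2, NT1 and NT2) and input RNA 67.6%, 59.9%, 63.3% and 65.8% (log2 odds 2.63 ± 0.40 SE, edgeR adjusted p = 0.135). At 1810013L24Rik the values were 53.0%, 44.9%, 77.1% and 67.7% against 20.3%, 8.54%, 43.2% and 10.7%. The reverse held at Rab21, with 3.42%, 5.87%, 3.03% and 2.34% against 16.1%, 17.0%, 13.8% and 17.0%, and at Smarcad1, with 20.9%, 25.0%, 12.8% and 4.26% against 51.6%, 71.6%, 65.3% and 85.1%. At 1810013L24Rik the lowest value of TIA1-bound RNA (44.9%) was close to the highest of input RNA (43.2%). Because these sites were picked by their values, their separation is no evidence of TIA1 binding. It was not counted over all PASs.

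Differentiated and proliferating C2C12 cells differed at intronic sites in both directions, and snoRNA ends were nearly absent from MT. In bulk RNA, a change in the mix of cells and a change within cells cannot be told apart. In total RNA, snoRNA ends had 380 and 411 RPM in MB and 9.85 and 4.97 RPM in MT. Of the 106, 15 passed the read filter, mostly through their MB reads, so their calls are no evidence of a change. The Tmem167 end had 41.0 and 44.6 RPM in MB and 2.33 and 2.48 RPM in MT. The Eif4a2 end had 30.2 and 36.5 RPM in MB and 0 and 0 in MT, where no fold is given. In cytoplasm the Rps12 end, at 38.2, 34.2, 60.5 and 9.21 RPM in MB of NT1, NT2, AS and RC4, was at 0 in the 4 MT libraries.

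In total RNA of C2C12 cells 37 members were higher and 64 lower in MT of 453 fitted, or 8.17% and 14.1%, against 3.76% and 3.79% of all 9992 PASs. The 64 include 14 of the 15 snoRNA-end sites fitted, which entered mostly through their MB reads. Clear sites gave 21 higher and 23 lower of 186. Leaving single libraries out of the fit without pairing gave 27 to 66 members higher and 61 to 79 lower, with the 66 without MB replicate 3. All PASs gave 205 to 663 higher and 227 to 630 lower in the same fits. The share of all members was 1.76% and 1.76% in MT and 2.04% and 2.12% in MB, lower in 2 of 2 pairs, while that of clear sites was higher in MT, at 0.187% and 0.187% against 0.161% and 0.166%, with 74 of the 186 fitted clear sites at higher odds. The smallest p that 2 pairs allow is 0.5. In cytoplasm 3 members were higher and 16 lower of 206, or 1.46% and 7.77%, against 0.396% and 0.587% of all PASs, and 1 clear site, in Ppp2r5c, was lower. Of these 16, 10 were snoRNA-end sites, of 13 fitted. The percentages of lower members in both fractions thus rest in part on snoRNA ends nearly absent from MT. The cytoplasmic count of lower members was 13 without MB NT2 and 2 to 6 without any other of the 8 libraries (2 without AS of MB or of MT, 4 without RC4 of MB or NT2 of MT, 5 without NT1 of MB or RC4 of MT, and 6 without NT1 of MT). Over all PASs the lower ones were 27 of 6517 without MB NT2 and 3 to 10 without any other library.

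The clear sites higher in MT included those of Wdr33, the subunit of the cleavage and polyadenylation specificity factor that binds the hexamer, and of Ssu72, a phosphatase of the RNA polymerase II tail. The Wdr33 site in intron 6 of 21 took 49.5% and 51.6% of the gene's reads in MT and 16.9% and 14.5% in MB (log2 odds 2.46 ± 0.25 SE, edgeR adjusted p = 0.0024). The Ssu72 site took 12.8% and 13.7% against 4.04% and 4.91% (log2 odds 1.70, adjusted p = 0.0112), and that in Phf20l1, a chromatin reader, 9.53% and 13.1% against 3.67% and 2.98%. Sites in the kinase genes Dapk2 (29.6% and 29.1%) and Dclk1 (23.9% and 19.1%) were listed in MT and at 0 in both MB libraries, so they entered the fit through their MT reads. The values in Wdr33, Ssu72 and Phf20l1 did not overlap between MT and MB total RNA. The same direction in every pair was part of the rule for naming sites, so this is no further support.

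Among the sites lower in MT, that of Fbrsl1 took 13.6% and 9.65% in MT and 65.7% and 56.9% in MB (log2 odds −3.60 ± 0.43 SE, edgeR adjusted p = 0.0039). The Ppp2r5c intron 14 site took 50.3% and 52.7% in MT and 84.7% and 72.0% in MB (log2 odds −1.76, adjusted p = 0.0169), and in cytoplasm 57.4%, 65.0%, 61.5% and 66.3% in MT against 83.8%, 86.5%, 85.1% and 87.9% in MB (NT1, NT2, AS and RC4). Atrx had 16.9% and 19.5% against 37.9% and 30.8%, and Rab21 3.42% and 3.86% against 8.04% and 7.22%. With 1 library left out of the total RNA fit without pairing, the call was kept in 4 of 4 fits at Fbrsl1, in 3 of 4 at Ppp2r5c intron 14 and Atrx, and in 2 of 4 at Rab21. At Ppp2r5c the direction was the same in the total and the cytoplasmic fits, each with an adjusted p under 0.05, although the cytoplasmic call was kept in 2 of 8 fits that left out 1 library.

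Cytoplasmic and total RNA of untreated C2C12 cells also differed at single sites. Of 309 members fitted, 39 were higher and 13 lower in cytoplasm, or 12.6% and 4.21%, against 4.99% and 4.20% of all 8100 PASs, and clear sites gave 12 higher and 3 lower of 109. The 39 became 12 and 20 without total MB replicates 2 and 3, 20 and 13 without total MT replicates 2 and 3, 31 and 51 without cytoplasmic NT1 and NT2 of MB, and 20 and 17 without those of MT. Over all PASs the higher ones ran from 80 to 616 in these fits, against 404 with every library. The site in Nisch, an imidazoline receptor and integrin-binding protein, took 13.4% and 16.4% (MB) and 7.69% and 10.9% (MT) of the gene's reads in cytoplasm and 1.79% and 2.53% (MB) and 2.61% and 2.73% (MT) in total RNA (log2 odds 2.35 ± 0.29 SE, edgeR adjusted p = 0.0019). The Trak1 site took 77.6%, 81.2%, 64.6% and 68.0% in cytoplasm and 52.3%, 38.8%, 38.7% and 40.6% in total RNA. The 1810013L24Rik site was lower in cytoplasm, with 25.0%, 16.5%, 28.3% and 24.0% against 41.4%, 33.2%, 60.4% and 56.0% (log2 odds −1.63, adjusted p = 0.0083). For Nisch, Trak1 and 1810013L24Rik all cytoplasmic values lay on one side of all total RNA values. Separation within each cell state was part of the rule for naming sites, so it is no further support. The fractions were not prepared as matched samples, and a difference between the series cannot be told apart from one between the compartments.

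In C2C12 cytoplasm members passed the test for stress or recovery about as often as all PASs did. The share of all members was 1.80% (MB) and 1.66% (MT) in AS and a mean of 1.73% over both, against 1.90% in NT, lower in 2 of 2 cell states, and clear sites had 0.116% and 0.113% in AS and 0.120% and 0.0983% in RC4, below each of the 4 NT libraries (0.138% to 0.188%). No member of 206 passed edgeR for AS against NT (0% of all 6306 PASs), and DESeq2 called 0, beside 9 of all 6306 PASs. After 4 h of recovery 3 members were higher and 3 lower, or 1.46% each, against 1.30% and 1.62% of all PASs. The clear one that rose was in intron 1 of Ndufs7, a subunit of respiratory complex I, with 43.4% of the gene's reads in RC4 against 14.7% and 20.8% in NT of MB and 29.2% against 5.77% and 11.9% in MT (log2 odds 1.97 ± 0.40 SE, edgeR adjusted p = 0.0424). Its AS values were 35.7% in MB and 11.7% in MT. The clear one that fell was in Rab21, with 0.707% and 0.603% in RC4 against 1.61% to 3.97% in NT. Leaving out MB NT2 gave 2 higher and 3 lower, leaving out AS of MB 1 and 1 or of MT 1 and 2, and leaving out any NT or RC4 library other than MB NT2 gave 0 and 0. All PASs gave 232 of 6517 without MB NT2, 91 of 6258 without AS of MB, 106 of 6153 without AS of MT and 0 in the other fits.

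Over the recovery of NIH3T3 cells, clear sites of total RNA replicate 4 had lower shares than in NT, while the 4sU library at 4 h had a higher one. In total replicate 4 the share of clear sites was 0.271% in NT, 0.257% in AS and 0.259%, 0.235%, 0.205% and 0.232% at 4, 8, 12 and 24 h. The interval at 12 h was 0.195% to 0.215% and that in NT 0.260% to 0.283%, which do not overlap, but they cover counting error only. The 3 NT libraries of total RNA ran from 0.202% to 0.271%, a range that holds every recovery value. In RC4 the clear share was 0.632% in 4sU RNA, against 0.393% and 0.421% in NT, and 0.221% in Ft RNA, against 0.258% and 0.286%. The share of all members in total replicate 4 was 3.90% in NT, 3.63% in AS and 3.61%, 3.44%, 3.35% and 3.69% in recovery. With 1 library per time these values compare libraries, and no test was made.

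**Figure D5:**
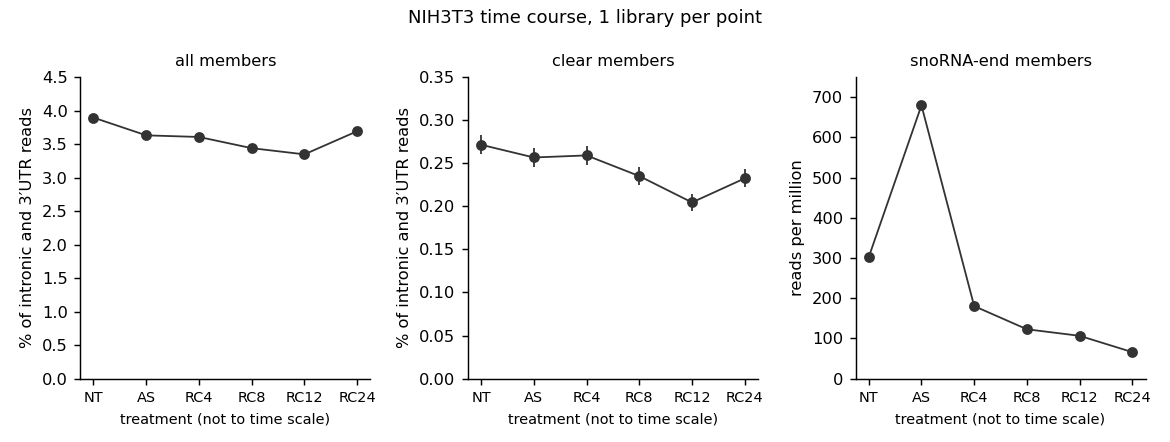
Share of all members and of clear sites (95% Wilson intervals) and summed RPM of snoRNA-end sites in total RNA replicate 4, in NT, AS and 4, 8, 12 and 24 h of recovery, 1 library per point and not to time scale. snoRNA ends go from 302 to 680 RPM in AS and down to 65.8 RPM at 24 h.

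Counted by 2-fold changes in odds against NT of the same series, 36 members were higher and 32 lower of 236 at 4 h, against 9.74% and 11.2% of all PASs. At 8 h 18 were higher and 33 lower of 214 (6.54% and 7.85% of all PASs), at 12 h 18 and 32 of 228 (5.55% and 6.79%), and at 24 h 9 and 30 of 169 (6.62% and 5.23%). Of the clear sites, 13 were higher and 11 lower of 86 at 4 h and 1 was higher and 10 lower of 57 at 24 h. Median changes of clear sites were −0.04, −0.22, −0.38 and −0.46 on the log2 scale at 4, 8, 12 and 24 h, against −0.01, −0.13, −0.25 and −0.20 for all members. Set against the mean of the 3 NT libraries instead, 84 members were higher and 91 lower at 24 h and the share of all members was 0.949 points higher, since replicates 1 and 2 had lower shares than replicate 4. The Tm4sf1 site took 36.6% of the gene's reads in NT, 33.4% in AS and 23.5%, 26.5%, 23.9% and 28.1% in recovery.

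Genes of the cleavage and polyadenylation machinery carried intronic sites of their own. Of 22 such genes 12 had 39 members, and the most-read site of each was in Wdr33 (12.4 RPM), Papola, the poly(A) polymerase (8.05 RPM, last intron), Pcf11 (4.73 RPM), Ssu72 (3.90 RPM), Rbbp6 (1.44 RPM), Cstf3 (0.718 RPM), Cpsf6 (0.471 RPM), Xrn2, the termination exonuclease (0.296 RPM), Cpsf3, the endonuclease (0.0761 RPM), Cstf2 (0.0555 RPM), Cstf1 (0.0498 RPM) and Cpsf7 (0.0435 RPM). The sites in Papola, Wdr33 and Pcf11 were the 3 that entered the total RNA fit of AS against NT, with log2 odds changes of −0.11 ± 0.67, −0.38 ± 0.65 and −0.50 ± 0.45 (SE), and 0 passed. In other comparisons Pcf11 was lower in 4sU RNA (1 of 5 fitted, against 3.61% of all PASs), Wdr33 and Ssu72 were higher in MT (2 of 3, against 3.76%) and Wdr33 was higher in cytoplasm (1 of 3, against 4.99%).

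Other lists had few called sites, beside 3.63% of all PASs higher and 3.61% lower in 4sU RNA, and 9.60% and 8.61% of the members fitted there. Of 28 receptor tyrosine kinase genes 15 had 75 members, which can give truncated receptors, and 1 of 7 fitted was lower in 4sU RNA, in Pdgfra, a receptor of platelet-derived growth factor (log2 odds −1.43 ± 0.31 SE, edgeR adjusted p = 0.0402). Of 27 chaperone and stress genes known to respond to arsenite 17 had 47 members, and 2 of 7 fitted were higher in 4sU RNA, in the thioredoxin reductase Txnrd1 and the cystine transporter Slc7a11. The Slc7a11 site had a mean of 19.0 reads and log2 odds of 6.60 ± 1.09 (SE). It probably entered the fit through its 4sU reads, so its log2 value is no measure of size. Elongation and U1 snRNP genes (28) had 40 members in 17 genes, with 1 of 2 fitted higher in 4sU RNA, in Scaf4. SR and hnRNP splicing factors (51 members in 18 of 32 genes) and DNA damage response genes (26 members in 18 of 28 genes) had 0 edgeR calls in the 9 comparisons. In AS against NT of total RNA the 4 stress gene sites fitted had a median of 0.06 on the log2 scale, against 0.02 over all members. Among them the site in Hspa4, a chaperone, had 1.25 ± 0.60 (SE), with an unadjusted p of 0.0801 (edgeR's quasi-likelihood test), and that in Dnajb4 0.61 ± 0.54. The sites in Hsph1 and Nfe2l2 went the other way. Hsph1 had −4.02 ± 0.94, with an unadjusted p of 0.0075 in the same test and a mean of 13.7 reads, and Nfe2l2 had −0.49 ± 0.59.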

How the data were processed

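Read counts at PAS clusters in 38 3′READS libraries were analysed. In the deposited files the authors gave raw read counts per cluster made by Cutadapt trimming and local bowtie2 alignment to mm9. They required a MAPQ of 10 or more and 2 or more Ts absent from the genome, and clustered sites within 24 nt. Clusters under 5 reads are not listed. The 4 RNA-seq libraries were not used here.

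Sites were placed with the GENCODE M1 annotation on NCBIM37 (Python 3.11.15, pandas 2.3.3, scipy 1.17.1), and copies were sought with blastn 2.17.0. Groups came from the sample titles, and the pairs are libraries of the same series number. Shares were means of 20 thinnings to 1000000 reads. Site odds were fitted with edgeR 4.0.16 (R 4.3.3) with library effects and a replicate block, for sites with a mean of at least 10 reads at both the site and the other 3′UTR PASs; DESeq2 1.42.0 was an alternative, and the fit was tested on simulated data. Depth ran from 1048335 to 6974664 reads, which limits sites under about 10 reads. Deviations of same-numbered total RNA libraries correlated at 0.871 to 0.898, input at 0.610, TIA1 at 0.436 to 0.438, 4sU and Ft at 0.301 and C2C12 total RNA at 0.101. No 2 libraries were identical.

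Named sites were the 10 most read, and for each comparison the 6 with the largest change in each direction among those with an adjusted p under 0.05, a mean of at least 30 reads and the same direction in every pair or groups without overlap, for all members and for clear sites, plus the most-read site of each cleavage and polyadenylation gene; others were chosen after their values were seen. The members, lists and classes were chosen with earlier results of these data known. A few items are not reported here.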

Additional observations from a re-analysis of the deposited data

Results flagged for a closer look

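The difference between MT and MB C2C12 cells in the share of clear sites went opposite ways in the RNA fractions. In cytoplasm MT was lower by a mean of −0.0148 points, in 4 of 4 pairs, and in total RNA it was higher by 0.0232 points, in 2 of 2. Over all deposited reads, without thinning, the cytoplasmic difference was +0.00625 points, so its sign depends on the thinning. The difference between the fractions was not tested.

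The change of the snoRNA-end share in AS also differed in sign between the cell lines, at +0.0636 points in NIH3T3 and −0.0106 points in C2C12 cytoplasm. This difference was not tested either. The C2C12 libraries were of cytoplasmic RNA and the NIH3T3 ones of total, 4sU, Ft and input RNA, of which only the input was cytoplasmic. In input replicates 1 and 2 the share in AS was 1.67 and 1.27 times that in NT. In C2C12 cytoplasm it was 0.751 times in MB and 0.910 times in MT. Input and C2C12 cytoplasm are separate series, so cell line and series cannot be told apart.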

How the results depend on the processing

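Of 357 alternative values for 40 results, 226 kept their direction and side of the threshold or stayed within 1.5 times. Causes were not tested. Counts of calls are given as higher and lower members. Counting unlisted sites as 4 reads gave 5 higher for AS against NT in total RNA, 131 and 122 for 4sU against Ft, 25 and 40 for TIA1 against input, 6 and 1 for input AS against NT, 7 and 10 for cytoplasmic RC4 against NT, 9 and 43 for cytoplasmic MT against MB, 69 and 118 for total MT against MB and 76 and 25 for cytoplasm against total. In the same order, all PASs fitted gave 15 of 8945, 2494 of 9990, 778 of 9279 and 13 of 6672 in either direction. The rest gave 579 and 360 of 6306, 2146 of 9992 and 1499 of 8100. DESeq2 gave 2 higher for total AS, 38 and 33 for TIA1, 1 lower for input AS, 5 and 5 for cytoplasmic RC4 and 5 and 29 for cytoplasmic MT. Over all PASs it gave 2 of 8945, 820 of 9279, 2 of 6672, 321 of 6306 and 148 of 6306. With no filter beyond 1 read, 4sU, cytoplasmic RC4, cytoplasmic MT, total MT and cytoplasm against total each gave 0 and 0. A mean of at least 20 reads gave 7 and 6 for TIA1 and 3 and 1 for input AS, beside 137 of all 5920 and 4 of all 4088 PASs. Only sites with AATAAA or ATTAAA gave 38 higher for 4sU and 3 and 36 lower for cytoplasmic and total MT. Over all PASs those counts were 346 of 9815, 23 of 6243 and 351 of 9868. Fisher's exact test in both total pairs 1 and 2 gave 9 and 5 of 508 members, beside 254 of all 8945 PASs in either direction, a similar share. Only clear sites, chosen after seeing the data, gave 14 and 23 for 4sU, 1 and 1 for cytoplasmic RC4, 0 and 1 for cytoplasmic MT, 21 and 23 for total MT and 12 and 3 for cytoplasm against total.

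Without the replicate block, that is without pairing the libraries, 4sU against Ft gave 30 and 27 and TIA1 against input 1 higher. All PASs gave 295 of 9990 and 17 of 9279 there. Other counts of members stayed within 1.5 times.

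Share differences in points that turned or lost their call were these. Without the 20 most-read members, total AS was 0.0350, cytoplasmic MT 0.0239, total MT 0.0323 and AS over 8 cultures −0.0362. With only clear sites total MT was 0.0232, and over all deposited reads 0.0315, cytoplasmic MT 0.00625, RC4 over 4 cultures 0.0143 and AS over 8 cultures −0.0265. With only AATAAA or ATTAAA sites, AS over 8 cultures was −0.0915 and RC4 over 4 cultures 0.0700. Against the mean of 3 NT libraries, members past 2-fold were 125 and 98, 114 and 93, 105 and 106, and 84 and 91 at 4, 8, 12 and 24 h, and share differences 0.863, 0.696, 0.603 and 0.949.

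Leaving out 1 library or pair gave 0 to 0 for total AS, TIA1 and cytoplasmic AS, 0 to 39 and 0 to 31 for 4sU, 0 to 2 and 0 to 3 for cytoplasmic RC4, 0 to 5 and 2 to 13 for cytoplasmic MT, and 12 to 51 and 4 to 20 for cytoplasm against total. Where 4sU or cytoplasmic RC4 gave 0 members in both directions, all PASs gave 0 as well. Share differences ran from −0.152 to 0.0153 for total AS, 0.298 to 0.597 for 4sU, 0.193 to 0.370 for TIA1, −0.211 to −0.0651 for input AS, −0.185 to −0.149 for cytoplasmic AS, −0.280 to −0.0611 for cytoplasmic RC4, −0.221 to −0.122 for cytoplasmic MT, −0.358 to −0.288 for total MT, −0.164 to −0.117 for AS over 8 cultures and −0.210 to −0.0514 for RC4 over 4. For input AS and total MT, with 2 pairs each, leaving out a pair leaves the fit with the block no residual degrees of freedom. Leaving out 1 library without pairing, chosen after seeing the data and with the lone library assumed to vary like the other group, gave 0 to 0 for input AS and 27 to 66 and 61 to 79 for total MT. Sites under about 10 reads a library could not be followed, and the listing limit of 5 reads hides low levels.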
